A study of Mus musculus with 4 samples.

Results

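The genes described here are 10 core genes of the mouse Hippo pathway, namely the kinases Stk3, Stk4, Lats1 and Lats2, the co-activators Yap1 and Wwtr1, and the transcription factors Tead1, Tead2, Tead3 and Tead4. They were chosen by symbol, and all 10 were found among the 24063 gene symbols of the count tables and passed the filter on low counts. RNA had been sequenced from lung endothelial cells (ECs) of mice 8 weeks old (strain C57BL6 in the labels and C57BL6J in the study's methods), either 7 days after unilateral pneumonectomy (PNX, removal of the left lung) or after a sham operation in which the chest was opened and the lung left in place. The labels do not state how long after the sham operation those mice were taken. Each group had 2 libraries, every library pooled the cells of 2 mice, and cells were pulled out of the digested lung with magnetic beads against CD31, from wild-type animals in both groups. The labels give male mice, whereas no read was counted on any of 44 chromosome Y genes (0 counts in all libraries) and Xist lay between 31872 and 33792 normalized counts, so the sex stated for the animals was not borne out in any of the 4 libraries. Library depth was 41367438 to 50952879 counts on 1 transcript per gene.

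In the Hippo pathway, the kinases STK3 and STK4 (MST2 and MST1) activate LATS1 and LATS2, which in turn phosphorylate YAP1 and its paralogue WWTR1 (TAZ). Phosphorylated co-activators are held in the cytoplasm or degraded, and unphosphorylated ones enter the nucleus, where they switch on genes by binding TEAD factors, since they have no DNA-binding domain of their own. The pathway is steered by cell density, cell shape and mechanical load, and in ECs it is known for its part in vessel sprouting. Most of this control acts on proteins, through phosphorylation, so transcript levels measure how much of each component was transcribed or kept and not how active the pathway was.

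The labelled cell type, endothelial, was checked against its markers, and RNA of several other cell types was in the fraction. Pecam1, which encodes CD31, stood at 374 FPKM in both groups on average, while the surfactant gene Sftpc stood at 2893 FPKM in sham and 1889 FPKM after PNX and the club cell gene Scgb1a1 at 4231 and 2063 FPKM. The 12 endothelial markers summed to between 3025 and 3064 FPKM in sham libraries and to between 2562 and 2567 FPKM after PNX, and 10 of the 12 fell and 1 rose in the edgeR test used throughout (adjusted p under 0.01), with a median log2 fold change of -0.25. The 9 epithelial markers summed to between 8092 and 8140 FPKM in sham and to between 4598 and 4699 FPKM after PNX, with 7 lower and 1 higher. Summed fibroblast markers (6 of 8 higher, 1 lower) lay between 206 and 209 FPKM in sham and between 694 and 697 FPKM after PNX, and macrophage markers (6 of 6 higher) at 105 FPKM in sham and between 353 and 355 FPKM after PNX. Mesothelial markers (5 of 5 higher) went from at most 47.1 to at least 121 FPKM, smooth muscle markers (5 of 6 higher) from at most 84.4 to at least 116 FPKM, and markers of cycling cells (6 of 6 higher) from at most 7.66 to at least 67.1 FPKM. Lymphocyte markers (7 of 7 lower) went from at least 58.5 to at most 34.2 FPKM. No marker tested was at 0 in a group. By gene, log2 fold changes were -0.01 for Pecam1 (adjusted p = 0.64), -0.22 for Cdh5, -0.48 for Epcam, 0.00 for Ptprc (adjusted p = 0.91), 2.34 for Col1a1, 1.97 for Msln and 2.91 for Mki67, and those of Pecam1, Cdh5 and Ptprc were 0.24, 0.03 and 0.25 with scaling to the endothelial markers. In such bulk samples, fewer cells of a type and less RNA per cell cannot be told apart, and the part that these shifts had in the results was not tested. Changes of the 10 genes are therefore given on 2 scales, with TMM normalization over all genes and with scaling to the 12 endothelial markers. The latter scale added 0.25 to the median log2 fold change of all genes. Where another gene has a single value, it is that with TMM.

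With TMM, 9 of the 10 genes passed an adjusted p of 0.01 in edgeR's quasi-likelihood test, against 57.1% of the 16208 genes tested. Wwtr1, Tead2 and Tead3 were higher after PNX (29.3% of all genes were higher), and Yap1, Tead1, Tead4, Lats1, Lats2 and Stk4 were lower (27.8% of all genes were lower), although none of these 6 was lower when counts were scaled to the endothelial markers. Stk3 was the gene that did not pass. The changes that passed were small, between 10.9% and 21.8% of the sham level. None of the 10 was changed beyond 2-fold, in edgeR or in DESeq2's Wald test or at an unadjusted p under 0.05 (count 0 in each), whereas 7.56% of all genes passed the test beyond 2-fold. The median size of the log2 fold change was 0.25 in these genes and 0.22 over all genes. Sham and post-PNX libraries did not overlap in 9 of the 10, as was the case for 81.2% of all genes. Replicates lay close together, with a median SD of 0.024 on the log2 scale for the 10 genes and 0.045 over all genes.

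**Figure D1:**
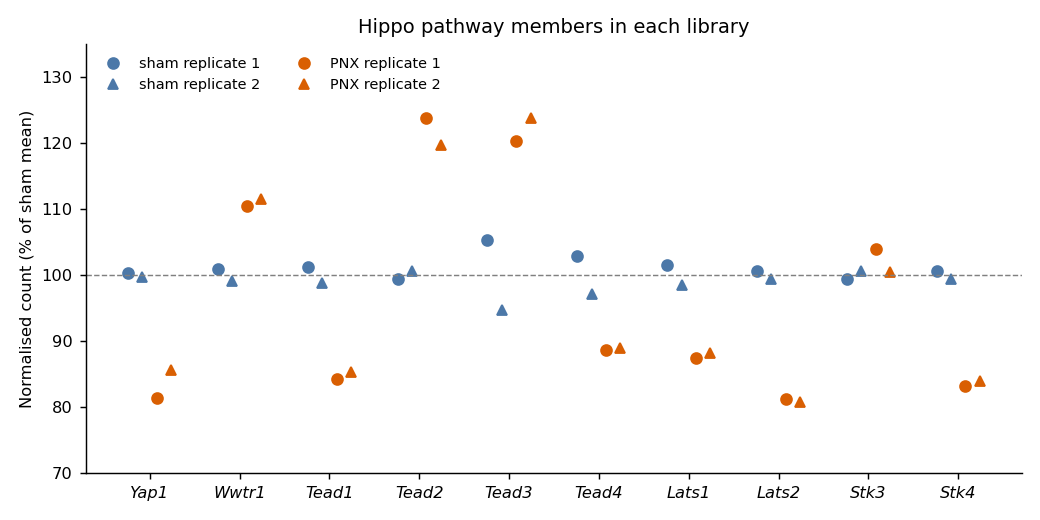
Normalized counts of the 10 genes in each library (y axis, percent of the mean of the sham libraries; x axis, gene; circles and triangles, replicates 1 and 2). Both post-PNX points lie above both sham points for Wwtr1, Tead2 and Tead3 and below them for Yap1, Tead1, Tead4, Lats1, Lats2 and Stk4, while the points of Stk3 overlap.

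When the counts were scaled to the endothelial markers, no gene of the 10 was lower in the edgeR test (count 0; at an unadjusted p under 0.05 it was 1 gene, Lats2) and 4 were higher, against 8.87% and 57.7% of all genes and 66.6% in either direction. The higher ones were Wwtr1, Tead2, Tead3 and Stk3. Yap1, Tead1, Tead4, Lats1, Lats2 and Stk4 then had log2 fold changes between -0.05 and 0.08. With TMM these 6 lay between -0.30 and -0.17, and the median of the endothelial markers themselves was -0.25. Single markers ranged widely, from -0.54 for Eng to 0.11 for Emcn, with Pecam1 at -0.01. The endothelial scale, and the values on it, therefore depend on which markers are used.

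**Figure D2:**
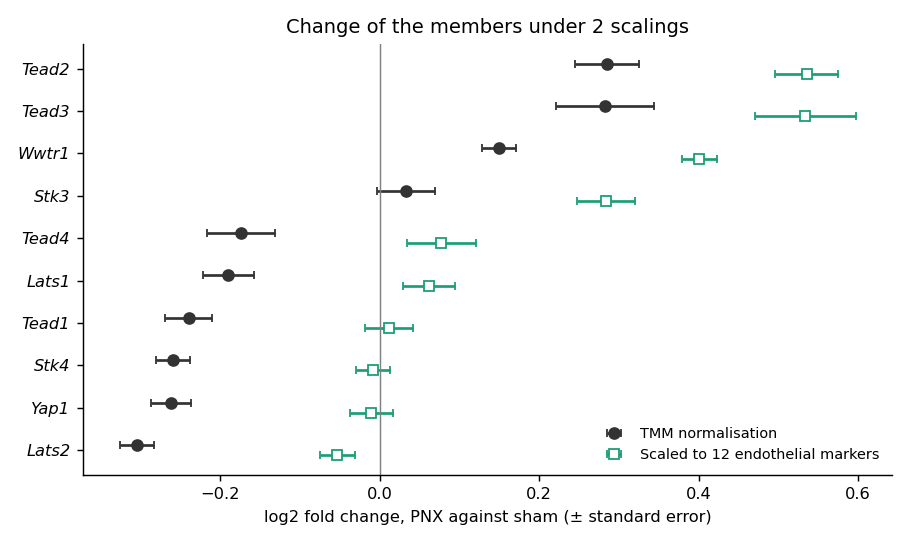
Log2 fold change of each gene between post-PNX and sham libraries with TMM normalization (filled circles) and with scaling to 12 endothelial markers (open squares). Bars are standard errors. With TMM 6 genes lie between -0.30 and -0.17, and the same genes lie near 0 on the endothelial scale, where Stk3, Wwtr1, Tead3 and Tead2 stand between 0.28 and 0.54.

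The co-activators moved apart. Yap1 (chromosome 9, 7931999 to 8004638, mm10) encodes the co-activator on which the study centres. It stood at 6792 and 6756 normalized counts in sham libraries against 5514 and 5796 post-PNX, with no overlap and the post-PNX values the lower ones. It decreased by 16.6% with TMM (log2 fold change -0.26 with standard error 0.025, adjusted p = 6.1e-14), but on the endothelial scale the log2 fold change was -0.01 (adjusted p = 0.74). Wwtr1 (chromosome 3, 57455644 to 57575910), which encodes TAZ, had 11021 and 10830 normalized counts in sham and 12067 and 12177 after PNX. It was higher in both post-PNX libraries, by 10.9% (log2 fold change 0.15 with standard error 0.021, adjusted p = 6.7e-09), and on the endothelial scale by a log2 fold change of 0.40 (adjusted p = 5.4e-14). Wwtr1 was thus higher on both scales and Yap1 lower on the TMM scale only.

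The sequences just upstream of the start sites of the co-activator genes are shown to give their context, as found in RefSeq for GRCm38.p6, the same build as mm10. The letters CATTCC, the core that TEAD factors bind, were searched on both strands (GGAATG on the other strand; no other motif was searched) in the 250 bases before each start, and matches stand in capitals. Transcribed bases were left off the 3′ end. The Yap1 stretch is chr9:8004639-8004846 and that of Wwtr1 is chr3:57575911-57576160, both read on the minus strand.
Yap1: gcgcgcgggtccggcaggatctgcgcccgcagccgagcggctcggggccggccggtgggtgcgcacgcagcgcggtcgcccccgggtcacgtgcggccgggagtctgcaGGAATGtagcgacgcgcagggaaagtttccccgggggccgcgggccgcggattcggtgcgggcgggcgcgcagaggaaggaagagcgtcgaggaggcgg
Wwtr1: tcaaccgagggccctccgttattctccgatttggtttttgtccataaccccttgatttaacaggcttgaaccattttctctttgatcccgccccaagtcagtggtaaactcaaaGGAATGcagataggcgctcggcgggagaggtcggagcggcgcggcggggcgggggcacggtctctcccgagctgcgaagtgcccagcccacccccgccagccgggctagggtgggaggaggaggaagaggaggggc
Each held 1 match, 141 bases before the Yap1 start at 8004596 and 136 bases before the Wwtr1 start at 57575910. The Yap1 start used lies inside the gene bounds given above, and that of Wwtr1 is the end of its bounds. Of all 32851 windows of this length in the table, 12.6% held the letters. Windows were listed for 7 of the 10 genes, and 3 of them (Yap1, Wwtr1 and Tead3) had a match in at least 1 window, as had 14.4% of the 27025 genes in the table. A match describes the sequence and shows no binding.

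The TEAD genes, which encode the DNA-binding partners of both co-activators, split into pairs. Tead1 (chromosome 7, 112679356 to 112906784) is the TEAD gene that the study examined in cultured human ECs, where hydrostatic pressure raised its mRNA. Species, cells and stimulus there were unlike those here. In these libraries Tead1 had 4221 and 4124 normalized counts in sham and 3512 and 3561 after PNX. Post-PNX libraries were below the sham libraries, and the decrease was 15.3% (log2 fold change -0.24 with standard error 0.029, adjusted p = 1.1e-10), while the sign turned on the endothelial scale (0.01, adjusted p = 0.74). Tead4 (chromosome 6, 128227143 to 128300813) had 1690 and 1594 normalized counts in sham and 1454 and 1461 after PNX. Its groups did not overlap either, and it decreased by 11.3% (log2 fold change -0.17, adjusted p = 0.00028), with 0.08 (adjusted p = 0.11) on the endothelial scale. The call of Tead4 was lost in DESeq2's Wald test (adjusted p = 0.019) and without the first sham library (adjusted p = 0.025).

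Tead2 (chromosome 7, 45215792 to 45233468), a TEAD gene known for its expression in the early embryo, had 1520 and 1539 normalized counts in sham and 1893 and 1831 after PNX. Both post-PNX libraries were above the sham libraries, by 21.8% on average (log2 fold change 0.28 with standard error 0.040, adjusted p = 8.2e-09), and the log2 fold change was 0.54 (adjusted p = 1.6e-11) on the endothelial scale. Tead3 (chromosome 17, 28331671 to 28350805) had the lowest counts of the 10 genes, 647 and 582 in sham and 739 and 761 after PNX. The post-PNX libraries were again the higher ones, by 21.7% (log2 fold change 0.28 with standard error 0.062, adjusted p = 6.4e-05), and by 0.53 (adjusted p = 6.6e-08) on the endothelial scale. The sham libraries of Tead3 differed more than those of the other 9 genes, at 105% and 94.7% of their mean.

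The upstream stretches of the TEAD genes that were higher are shown for comparison with each other, Tead2 from chr7:45215542-45215752 on the plus strand and Tead3 from chr17:28350818-28351055 on the minus strand, with TEAD core letters in capitals.
Tead2: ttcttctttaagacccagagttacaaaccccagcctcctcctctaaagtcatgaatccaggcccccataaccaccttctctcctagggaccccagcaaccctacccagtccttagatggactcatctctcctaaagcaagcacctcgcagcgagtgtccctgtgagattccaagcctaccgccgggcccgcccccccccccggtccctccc
Tead3: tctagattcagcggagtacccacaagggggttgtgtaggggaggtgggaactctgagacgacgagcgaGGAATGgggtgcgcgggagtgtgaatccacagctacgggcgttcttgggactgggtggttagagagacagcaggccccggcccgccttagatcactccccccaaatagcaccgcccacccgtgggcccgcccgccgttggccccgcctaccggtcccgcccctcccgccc
The stretch of Tead3 held GGAATG 182 bases before its start and that of Tead2 held no match. Another listed start of Tead3 had 2 matches (CATTCC), 123 and 114 bases before it, in transcribed bases that are not printed. Upstream sequences of Lats1, Lats2 and Stk4 had no match.

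The LATS kinases, which phosphorylate YAP1 and TAZ directly, were lower with TMM. Lats2 (chromosome 14, 57689662 to 57746212), itself a known target of YAP1, had 10810 and 10688 normalized counts in sham and 8731 and 8682 after PNX. This was the largest fall of the 10 genes, 19.0% (log2 fold change -0.30 with standard error 0.022, adjusted p = 2.6e-19), and it became -0.05 (adjusted p = 0.037) on the endothelial scale. Lats1 (chromosome 10, 7681200 to 7716461) had 3310 and 3211 normalized counts in sham and 2849 and 2874 after PNX. It decreased by 12.3% (log2 fold change -0.19 with standard error 0.032, adjusted p = 4.3e-07), with the opposite sign on the endothelial scale (0.06, adjusted p = 0.094). For both genes the post-PNX libraries lay below the sham libraries.

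The upstream kinases differed from each other. Stk4 (chromosome 2, 164074113 to 164155524), which encodes MST1, had 12131 and 11971 normalized counts in sham and 10029 and 10109 after PNX. Its libraries were lower after PNX, by 16.5% (log2 fold change -0.26 with standard error 0.021, adjusted p = 6.8e-17), and the log2 fold change was -0.01 (adjusted p = 0.74) on the endothelial scale. Stk3 (chromosome 15, 34875499 to 35155882), which encodes MST2, had 2051 and 2073 normalized counts in sham and 2143 and 2072 after PNX. These groups overlapped, and the difference of 0.03 on the log2 scale was smaller than its standard error of 0.037 (adjusted p = 0.44), whereas on the endothelial scale it was 0.28 (adjusted p = 2.3e-07).

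Levels of different genes were compared per length, by the FPKM deposited for the transcript used. In sham libraries the order began with Stk4 (31.5 FPKM) and Wwtr1 (31.2 FPKM), whose libraries overlapped, then Lats2 (28.1) and Yap1 (22.1). Tead2 (9.63) and Stk3 (9.62), which overlapped, came next, then Tead4 (7.25), Lats1 (6.14), Tead1 (5.69) and Tead3 (3.19). The libraries of all other neighbours in this order did not overlap. After PNX the order was that of sham except that Wwtr1 (34.9 FPKM) stood above Stk4 (26.5 FPKM), and no neighbours overlapped. Of the co-activators, TAZ was therefore the more abundant transcript in all 4 libraries. In the sham libraries, which held RNA of several cell types, Yap1 lay at or above 85.5% of the genes tested in FPKM. Wwtr1 lay at or above 90.5%, Tead1 at or above 53.1% and Tead3 at or above 39.5%.

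**Figure D3:**
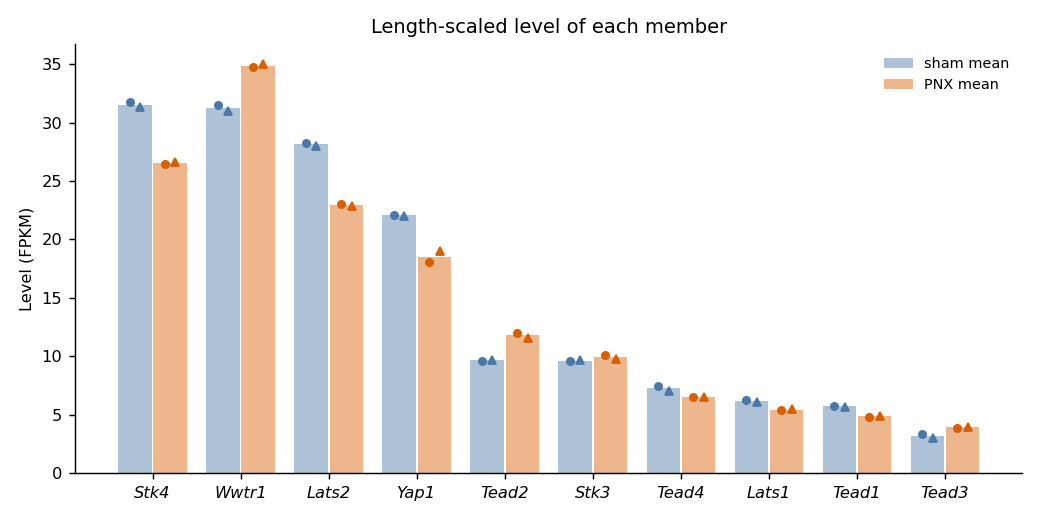
Length-scaled level (FPKM, y axis from 0) of each gene, ordered by its mean in sham libraries. Bars are means of 2 libraries and points are the libraries (circles for replicate 1, triangles for replicate 2). Stk4, Wwtr1, Lats2 and Yap1 stand above 18 FPKM and the other 6 genes below 13 FPKM in both groups.

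Ratios taken within a library do not depend on how libraries are scaled. They do depend on the mix of cells, and a shift within ECs cannot be told apart here from a change of that mix. The ratio of Wwtr1 to Yap1 FPKM was 1.42 and 1.41 in sham and 1.92 and 1.84 after PNX, a difference of 0.41 on the log2 scale, with SDs of 0.012 in sham and 0.042 after PNX. The groups did not overlap, but 2 libraries against 2 allow no p below 0.333 in an exact two-sided permutation test, and this p was 0.333. The sum of Yap1 and Wwtr1 FPKM was 53.6 and 53.0 in sham and 52.9 and 54.0 after PNX. In FPKM, the summed level of the co-activators overlapped between groups while its makeup moved from Yap1 towards Wwtr1. A sum, unlike a ratio, depends on how libraries are scaled. It was not computed on the endothelial scale, where Wwtr1 was higher (log2 fold change 0.40) and Yap1 stood at -0.01.

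The makeup of the TEAD pool shifted too. Tead1 held 22.01% and 22.16% of the summed TEAD FPKM in sham and 17.8% and 18.1% after PNX, and Tead4 went from 28.5% and 27.7% to 23.8% and 24.1%. Tead2 had 36.6% and 38.2% in sham and 44.2% and 43.0% after PNX, and Tead3 had 12.9% and 11.9% in sham against 14.2% and 14.8%. None of the 4 shares overlapped between the groups (exact two-sided permutation p = 0.333 for each, the smallest possible). Summed TEAD FPKM, which depends on how libraries are scaled, was 26.1 and 25.4 in sham and 27.2 and 26.9 after PNX. Summed Yap1 and Wwtr1 relative to summed TEAD was 2.05 and 2.09 in sham and 1.95 and 2.00 after PNX. These groups did not overlap (log2 difference -0.067, exact two-sided permutation p = 0.333). With FPKM summed over all transcripts the log2 difference was -0.090.

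Among the kinases, the ratio of Stk4 to Stk3 FPKM went from 3.32 and 3.24 in sham to 2.63 and 2.74 after PNX (-0.29 on the log2 scale), and that of Lats2 to Lats1 from 4.54 and 4.63 to 4.26 and 4.199 (-0.12 on the log2 scale), with no overlap in either ratio and an exact permutation p of 0.333 for each. Further ratios were chosen after the values had been seen and are given as a description. Yap1 relative to Lats2 was 0.782 and 0.787 in sham and 0.786 and 0.831 after PNX, overlapping between the groups, whereas with FPKM summed over all transcripts of each gene it was 0.888 and 0.863 in sham and 0.901 and 0.956 after PNX, with no overlap. The summed co-activators relative to the summed LATS kinases were 1.55 and 1.56 in sham and 1.86 and 1.91 after PNX.

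**Figure D4:**
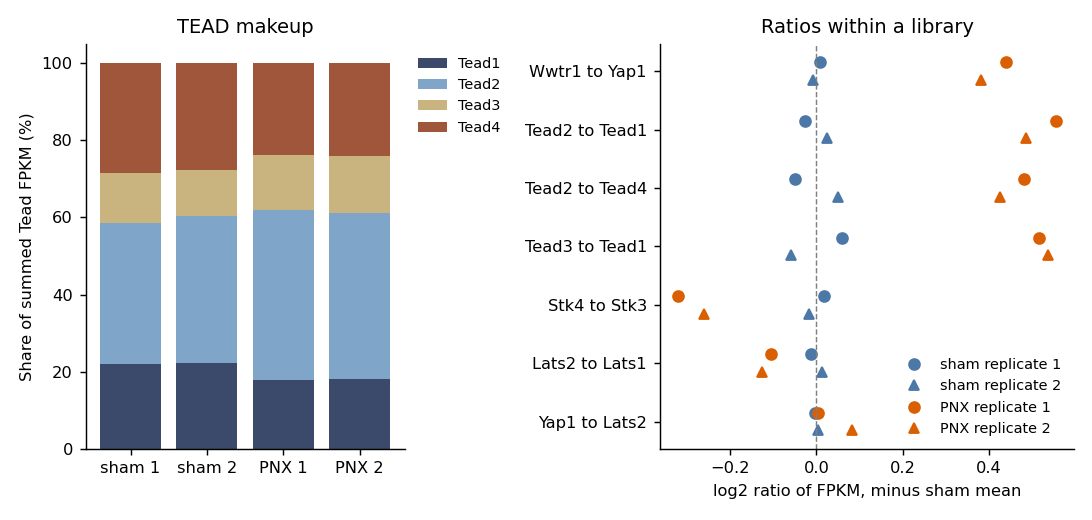
Left, share of each TEAD gene in the summed TEAD FPKM of each library (stacked bars, percent). Right, log2 ratio of FPKM within each library minus the sham mean (circles and triangles, replicates 1 and 2). Post-PNX points stand apart from sham points in all rows but Yap1 to Lats2 (FPKM of the transcript used for each gene). The distance is 0.41 for Wwtr1 to Yap1 and 0.52 for Tead2 to Tead1. The pairs of TEAD genes were not planned. Each sets a gene that was higher against one that was lower with TMM, which fixed the separation of these rows.

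The tables list several transcripts for 7 of the genes. The transcripts of Yap1, Wwtr1, Tead1, Tead2, Tead3 and Tead4 had at least 99.4% of the counts of the transcript used, so splice forms could not be told apart. The Yap1 transcripts, with 7497 and 7495 counts in the first sham library, had log2 ratios of -0.26 each. Lats2 was the exception. Its short transcript of 904 bases had 1604 and 1525 counts in sham and 1169 and 1016 after PNX, or 13.6% of the counts of the long transcript of 5191 bases. The log2 ratio of the short transcript was -0.40 and that of the long transcript -0.30, and part of the reads may be shared between them.

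Around these genes, 5 lists of other pathway genes (90 genes together, 87 of them tested) had 20 higher and 46 lower genes at an adjusted p of 0.01, which is 75.9% of those tested against 57.1% of all genes, and a median log2 fold change of -0.10 against 0.00. On the endothelial scale the counts turned round, to 54 higher and 12 lower, as those of all genes moved (57.7% higher and 8.87% lower). The median was 0.16 against 0.25 for all genes. For each list below, the shares over all genes were 29.3% higher and 27.8% lower with TMM, and 57.7% and 8.87% on the endothelial scale. Only Fjx1 passed beyond 2-fold. Among the adaptors and upstream scaffolds, 4 were higher and 13 lower of 18 with TMM, and 9 higher and 4 lower on the endothelial scale. Adaptors of the kinases were lower with TMM by small amounts that did not hold on the endothelial scale. Sav1, the partner of STK3 and STK4, had a log2 fold change of -0.13 (endothelial scale 0.12), Mob1a, a LATS co-activator, -0.12 (0.13), its paralogue Mob1b -0.26 (-0.01), and Nf2, the membrane scaffold merlin, -0.11 (0.14). On the endothelial scale Sav1, Mob1a and Nf2 were higher (adjusted p = 0.00014, 0.00073 and 2.3e-05), and with TMM the call of Mob1a was lost without the first sham (-0.10, adjusted p = 0.011) or the second post-PNX library (-0.10, adjusted p = 0.015) and that of Nf2 without the first post-PNX library (-0.09, adjusted p = 0.021). Among the 4 genes of this list that were lower on both scales, the largest falls were those of Wwc1 and Ptpn14. Wwc1, which encodes the scaffold KIBRA, went from 3545 and 3608 to 2013 and 2119 normalized counts (log2 fold change -0.79, endothelial scale -0.54). Ptpn14, a phosphatase that binds YAP1, went from 5529 and 5632 to 4247 and 4207 (-0.40, endothelial scale -0.15). Fat1, an atypical cadherin, was higher (0.26), and Fjx1, a Golgi kinase for such cadherins, went from 87.0 and 103 normalized counts to 214 and 208 (1.16).

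Of 22 other kinases reported to act on LATS or YAP1, 4 were higher and 12 lower with TMM, and 14 higher and 2 lower on the endothelial scale. Map4k2, which can phosphorylate LATS in parallel to the MST kinases, fell from 19006 and 19044 normalized counts to 13815 and 13720 (log2 fold change -0.47, endothelial scale -0.22), and Taok2 had -0.33 (-0.08). Mark1 was higher from a low level (0.70), and Nuak2 was higher by 0.32. The 17 genes of the STRIPAK phosphatase complex and of LATS inhibitors had 3 higher and 6 lower with TMM, a share of 52.9% near that of all genes, and 13 higher and 1 lower on the endothelial scale. Without the first post-PNX library 1 was higher with TMM. In this list the phosphatase subunits Ppp2ca (0.16) and Ppp2r1a (0.10, and without the first post-PNX library 0.08, adjusted p = 0.012) were higher. The ubiquitin ligase Itch (-0.39, endothelial scale -0.14) was lower on both scales, and the scaffold Strn3 (-0.27, endothelial scale -0.02) with TMM only.

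Genes for the turnover and cytoplasmic retention of YAP1 and TAZ numbered 6 higher and 6 lower of 15 with TMM, and 11 higher and 1 lower on the endothelial scale. The 6 that were higher with TMM were all 14-3-3 genes, whose proteins hold phosphorylated YAP1 in the cytoplasm. Ywhah went from 6553 and 6525 normalized counts to 8994 and 9542 (log2 fold change 0.50), and Ywhag had a log2 fold change of 0.40. Amotl2, an angiomotin that binds YAP1, fell from 11211 and 11033 to 6650 and 6837 normalized counts (-0.72, endothelial scale -0.47), and Btrc, the receptor subunit of a ubiquitin ligase for YAP1 and TAZ, had -0.35 (-0.10). Of 15 nuclear partners tested, 3 were higher and 9 lower with TMM, and 7 higher and 4 lower on the endothelial scale. Vgll4, which competes with YAP1 for TEAD factors, had -0.30 (endothelial scale -0.04), and the co-activator gene Ncoa3 had -0.49 (-0.24). Trp73, at 164 and 152 against 87.5 and 81.3 normalized counts, had -0.90 (-0.65), while Tbx5 (0.27) and Fosl1 (0.29) were higher. The call of Fosl1 was lost in DESeq2's Wald test (adjusted p = 0.058), without the first sham library (adjusted p = 0.027) and without the first post-PNX library (adjusted p = 0.041). In the Wald test, and without either of these libraries, the list had 1 higher gene in place of 3. Vgll1, Vgll2 and Tfap2c were below the filter, with at most 2 counts in any library.

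**Figure D5:**
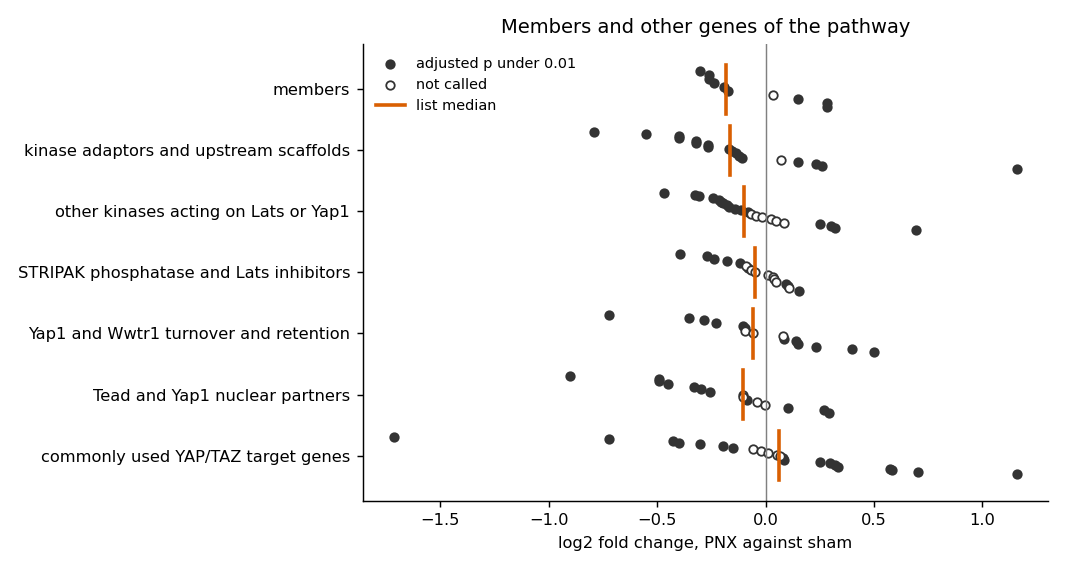
Log2 fold change between post-PNX and sham libraries (x axis, TMM) of the 10 genes, of 5 lists of other pathway genes and of commonly used target genes. Filled points passed an adjusted p of 0.01, open points did not, and orange lines are list medians. The medians of the members and of the 5 lists lie between -0.18 and -0.05 and that of the targets at 0.06.

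Genes commonly taken as YAP1 and TAZ targets did not move as a block. Of 22, 10 were higher and 7 lower with TMM, or 77.3% called against 57.1% of all genes (29.3% higher, 27.8% lower). The median log2 fold change was 0.06. On the endothelial scale 16 were higher and 4 lower (57.7% and 8.87% of all genes), with a median of 0.31 against 0.25 for all genes. Lats2 belongs to the 10 genes too, and Fjx1, Amotl2, Ptpn14 and Nuak2 were also counted in the pathway lists. Cyr61 (Ccn1), a matricellular gene, changed by -0.19 on the log2 scale (adjusted p = 9.8e-15), with the opposite sign on the endothelial scale (0.06, adjusted p = 0.0067). For Ctgf (Ccn2) the value was -0.02 (adjusted p = 0.39), and 0.23 (adjusted p = 1.1e-09) on the endothelial scale. Ankrd1, a nuclear ankyrin-repeat gene, went from 255 and 271 normalized counts to 431 and 352 (0.58, adjusted p = 1.1e-07). The extremes were Fjx1 (1.16) and Anxa1 (0.70) on the higher side and Igfbp3 (-1.71, endothelial scale -1.46) on the lower.

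By distance of centred log2 normalized counts over the 4 libraries, Yap1 had as its nearest genes, out of 8117 whose mean reached 1000 normalized counts, Las1l (distance 0.009), Rbm5 (0.011) and Plekhm3 (0.013). Their log2 fold changes were all -0.26, a likeness to Yap1 that the choice by distance fixed.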

How the data were processed

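The authors deposited, for each library, read counts on 33068 RefSeq transcripts of mm10, with no normalization, and beside them FPKM and TPM values (scaled to transcript length and library total). A stranded mRNA kit and paired-end sequencing were used. STAR is named in the submitters' processing notes, and its version and the counting program are not given in the sources used here. Transcripts that share exons had nearly equal counts, that is, the same reads were counted more than once, and each gene symbol was therefore represented by the transcript whose counts, added over all 4 libraries, were highest. Replicates are pools of different mice by the study's description. The p-values rest on the spread between libraries of a group, which was small. The median SD on the log2 scale was 0.045 over all genes tested and 0.024 for the core Hippo genes. Whether so small a spread covers the differences between mice was not tested. The p-values are therefore not a measure of mouse-to-mouse variation, and small changes could reach very low ones.

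Counts were tested in R 4.3.3 with edgeR 4.0.16 (filterByExpr, TMM factors of 0.998 to 1.003, quasi-likelihood F test, no covariates), with Benjamini-Hochberg adjustment over 16208 genes. The standard error is the log2 fold change divided by the square root of F. Normalized counts are scaled to the mean library size, with a prior count of 0.125 on the log2 scale. Scaling to 12 endothelial markers used the geometric mean of their counts. DESeq2 1.42.0 served as an alternative. The steps were tested on simulated counts in which few genes changed and the spread was fixed, unlike these data, where many genes changed. A level of 3 counts, taken as the floor, was 0.0589 to 0.0725 CPM, which covers counting error only. The replicates of a group differed by more than counting noise (mean chi-square per gene 1.67 in sham and 1.46 after PNX). Gene coordinates and upstream sequences are from RefSeq (GRCm38.p6). Deposited FPKM served for levels and ratios, and TPM for a check of the order.

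The genes and lists were chosen with earlier results of these data known, and no support is drawn from a list as a set. Genes named beside the 10 were those with the largest rises and falls, up to 2 each, in every list (adjusted p under 0.01, mean of at least 100 normalized counts), a few fixed partners and targets, and the 3 genes nearest to Yap1.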

Additional observations from a re-analysis of the deposited data

How the results depend on the processing

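Apart from the scaling to endothelial markers, 108 of 110 fold changes of the 10 genes under alternatives (other size factors, filters, DESeq2, counts summed over transcripts, the replicate block and each library left out) kept their direction and their side of the threshold. The exceptions were Tead4 in DESeq2's Wald test (-0.17, adjusted p = 0.019) and without the first sham library. On the endothelial scale the log2 fold changes were -0.011 for Yap1, 0.012 for Tead1, 0.077 for Tead4, 0.061 for Lats1, -0.053 for Lats2, 0.28 for Stk3 and -0.0083 for Stk4, the genes lower numbered 0, and the genes of the 5 pathway lists numbered 54 higher and 12 lower. On that scale Sav1 (0.12), Mob1a (0.13), Nf2 (0.14), Cyr61 (0.057), Ctgf (0.23), Pecam1 (0.24), Cdh5 (0.030) and Ptprc (0.25) reversed. Ptprc, which lay at 0.00, also changed sign with library size alone (0.000571), with summed transcripts (0.00187), and over the libraries left out in turn it ranged from -0.017 to 0.014. The cause was not tested beyond the shift of 0.25 that this scale adds.

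With each library left out in turn, the log2 fold change ranged from -0.21 to -0.13 for Tead4, and 5 to 6 of the 10 genes were lower. Without the first post-PNX library the higher genes of the STRIPAK list went from 3 to 1, and those of the nuclear partners from 3 to 1, as they did without the first sham library. The replicate numbers are shared by libraries of different mice, and deviations of libraries with the same number did not go together (correlation 0.024 across genes). With the replicate block 9441 genes were called against 9258, and no call among the 10 genes or the other named genes changed. When FPKM was summed over transcripts, which counts shared reads more than once, 8 of the 10 genes changed rank by level, the groups no longer overlapped in the ratio of Yap1 to Lats2 (log2 difference 0.08 in place of 0.04), the difference in the log2 ratio of Lats2 to Lats1 was -0.16, that of the co-activators to the LATS kinases 0.32, and the shares of Tead1 and Tead4 changed by -4.88 and -3.34 percentage points. By TPM 0 genes changed rank. With 2 libraries per group the exact tests could not pass any threshold.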
